A study of Mus musculus with 16 samples.

Results

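The miR-181 family was followed across an Agilent microRNA (miRNA) array series of mouse lung during ovalbumin (OVA)-induced allergic airways disease. Members were all array entries whose name is mmu-miR-181a, mmu-miR-181b, mmu-miR-181c or mmu-miR-181d, with or without a locus or arm suffix, and 6 of the 611 mouse miRNAs on the array met this rule. They are the 5p strands miR-181a-5p, miR-181b-5p, miR-181c-5p and miR-181d-5p and the opposite strands miR-181a-1-3p and miR-181a-2-3p. The 16 arrays, 1 colour each, held total RNA from lungs of BALB/c mice aged 8 to 12 weeks per the study's methods, and all animals had received 1 mg Alhydrogel, an aluminium hydroxide adjuvant, on day 0. PBS/PBS lungs (n = 2) came from mice given the adjuvant without OVA and challenged with PBS, as the labels have it without naming a route. The study's results also describe this group as challenged with PBS. Its methods speak of an OVA challenge in every animal and do not describe a PBS challenge, and the labels were followed here. PBS/OVA lungs (n = 4) came from mice given the adjuvant without OVA and challenged intranasally with 10 μg OVA on days 12, 13, 14 and 15. OVA/OVA lungs (n = 6) came from mice sensitised with 50 μg OVA in the adjuvant and then challenged in the same way, which is the allergic group. OVA/OVA DEX lungs (n = 4) came from mice that were sensitised and challenged like OVA/OVA and also injected with the glucocorticoid dexamethasone at 3 mg/kg, starting on day 11 and repeated every second day, 1 hour ahead of the challenge. Lungs were taken 24 hours after the last challenge. The labels number the replicates without naming the animals, so the p-values measure the spread between these samples.

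MiRNAs are short RNAs that guide Argonaute proteins to mRNAs, mainly by pairing of bases 2 to 8, the seed, and thereby lower the stability and translation of those mRNAs. In the immune system miR-181a is known for tuning the sensitivity of developing T cells to antigen receptor signals, through phosphatases that dampen the receptor. In endothelium miR-181b is known as a brake on NF-κB signalling, the pathway through which inflammatory cytokines switch on adhesion molecules.

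The mature sequences are given here because the 4 guide strands share a seed but differ downstream of it, and because the arrays had to tell them apart by those few bases. Sequences and positions are those of RefSeq for GRCm38.p6, written 5′ to 3′ with the seed in capitals, and all 6 members matched the table.
miR-181a-5p (chr1:137966468-137966490, + strand, and chr2:38852741-38852763, + strand): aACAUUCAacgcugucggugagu
miR-181c-5p (chr8:84178924-84178945, - strand): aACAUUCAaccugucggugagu
miR-181b-5p (chr1:137966650-137966673, + strand, and chr2:38853845-38853868, + strand): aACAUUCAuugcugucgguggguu
miR-181d-5p (chr8:84178759-84178781, - strand): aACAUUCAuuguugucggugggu
miR-181a-1-3p (chr1:137966508-137966529, + strand): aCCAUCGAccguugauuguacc
miR-181a-2-3p (chr2:38852785-38852806, + strand): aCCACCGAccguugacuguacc

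The 5p strands carried the seed ACAUUCA, and of 1679 mature mouse miRNAs in the table only these 4 did. Their genes lie in pairs: Mir181a-1 with Mir181b-1 on chromosome 1, Mir181a-2 with Mir181b-2 on chromosome 2, and Mir181c with Mir181d on chromosome 8, with 159, 1081 and 142 bases between the 5p sequences of a pair. The pair on chromosome 2 lies within the span of the protein-coding gene Nr6a1 and of the long non-coding RNA Nr6a1os. Likeness of sequence crosses these pairs. MiR-181a-5p and miR-181c-5p differ by 1 base, which is absent from miR-181c-5p, and share their last 12 bases. MiR-181b-5p and miR-181d-5p differ by 2 edits, the substitution C12U (counted from 1 at the 5′ end of miR-181b-5p) and 1 base fewer at the 3′ end. MiR-181a-5p differs from its neighbour on the chromosome, miR-181b-5p, by 4 edits. Because miR-181a-5p and miR-181b-5p are each made from both of their loci, an array signal cannot be assigned to chromosome 1 or 2, whereas the 3p strands miR-181a-1-3p and miR-181a-2-3p are particular to a locus.

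Signals are given as log2 of the deposited processed intensity summed over the probes of a miRNA, after division by a factor for each array, taken from the 75th percentile of its 206 miRNAs that every array detected. MiR-181a-5p, miR-181b-5p, miR-181c-5p, miR-181d-5p and miR-181a-1-3p were detected on all 16 arrays. MiR-181a-2-3p was detected on 0 of 16, its 4 probes read between -2.18 and 1.88 before scaling, and it was not tested. The family tests therefore rest on 5 members, among 266 miRNAs detected throughout at least 1 group. Summed unscaled array signal ran from 253333 to 734606 in OVA/OVA and from 795089 to 942144 in PBS/PBS, so these groups did not overlap in brightness. The arrays lay on 2 slides, and both PBS/PBS arrays were on slide 1. Markers expected in lung (endothelial miR-126-3p and miR-126-5p, and the epithelial miR-200 group with miR-141-3p and miR-429-3p) were detected on all 16 arrays. Of the markers of other organs, neuronal miR-124-3p was detected on 0 arrays and liver miR-122-5p on 4.

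In allergic lungs the members' differences were small, none above 0.49 log2 units in size with the main scaling. No member changed 2-fold in any comparison with that scaling. Of all miRNAs tested, 9.02%, 5.26% and 12.8% passed the test at 2-fold or more for OVA/OVA with PBS/PBS, PBS/OVA or dexamethasone-treated lungs as comparator. In the 3 comparisons without OVA/OVA, 0%, 0.752% and 0.376% did. At such shares, 0 of 5 members does not set the family apart from other miRNAs. With the main scaling, every member that passed the test was lower in OVA/OVA. Without scaling, the 5 members differed from PBS/PBS by -1.51 to -1.18, beside a median of -1.11 over all miRNAs. With normexp, a different background correction, miR-181a-1-3p (+0.61) and miR-181d-5p (+0.53) were called higher than in PBS/PBS. Against OVA/OVA DEX with the main scaling, miR-181a-5p and miR-181c-5p were lower by 0.43 and 0.49 log2 units in OVA/OVA. There miR-181b-5p and miR-181d-5p differed by 0.05 or less in size. Tests of the difference between members, as ratios within an array, did not pass adjustment (0 of 12, lowest exact adjusted p = 0.114). No member passed the test between dexamethasone-treated lungs and either control group. The RNA is from bulk lung, where fewer cells of a type and less of the miRNA per cell cannot be told apart.

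MiR-181a-5p, the member best known from T cells, measured 9.85 and 9.74 log2 units in the 2 PBS/PBS arrays. In PBS/OVA it measured 9.75, 9.59, 9.77 and 9.83. In OVA/OVA it ranged from 9.46 through a median of 9.52 to 9.60, and the OVA/OVA DEX arrays read 10.13, 9.86, 9.77 and 10.07. All 6 OVA/OVA arrays were below every PBS/PBS and every OVA/OVA DEX array, and 5 of the 6 were below every PBS/OVA array. Group means were 9.80 ± 0.08 (SD, n = 2), 9.74 ± 0.10 (n = 4), 9.52 ± 0.06 (n = 6) and 9.96 ± 0.17 (n = 4) in the same order.

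MiR-181c-5p, the 5p strand closest to it in sequence, measured 7.86 and 7.78 in PBS/PBS. In PBS/OVA it measured 7.88, 7.37, 7.74 and 7.71. In OVA/OVA it ranged from 7.32 through a median of 7.41 to 7.55, and the OVA/OVA DEX arrays read 8.0, 7.92, 7.65 and 8.03. OVA/OVA again lay wholly below PBS/PBS and OVA/OVA DEX. It overlapped PBS/OVA, because PBS/OVA replicate 2 read 7.37 while the other PBS/OVA arrays read 7.71 or more.

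MiR-181b-5p, the endothelial NF-κB regulator, measured 7.57 and 7.58 in PBS/PBS. In PBS/OVA it measured 7.70, 7.84, 7.70 and 7.71. In OVA/OVA it ranged from 7.44 through a median of 7.47 to 7.55, and in OVA/OVA DEX it measured 7.60, 7.54, 7.48 and 7.51. PBS/OVA was above all arrays of the other 3 groups, and OVA/OVA overlapped OVA/OVA DEX.

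MiR-181d-5p, which differs from miR-181b-5p downstream of the seed by the 2 edits above, varied more. It measured 6.15 and 6.19 in PBS/PBS and between 6.19 and 6.27 in PBS/OVA. In OVA/OVA it ranged from 5.84 through a median of 6.10 to 6.26, and in OVA/OVA DEX it measured 6.14, 6.13, 6.16 and 5.73. OVA/OVA overlapped each of the other groups, and the lowest value was OVA/OVA DEX replicate 4.

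MiR-181a-1-3p, the opposite strand of the chromosome 1 hairpin, measured 5.65 and 5.48 in PBS/PBS and between 5.59 and 5.74 in PBS/OVA. In OVA/OVA it ranged from 5.25 through a median of 5.31 to 5.45, and in OVA/OVA DEX it measured 5.58, 5.49, 5.63 and 5.62. Its OVA/OVA arrays were below every array of the other 3 groups.

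**Figure D1:**
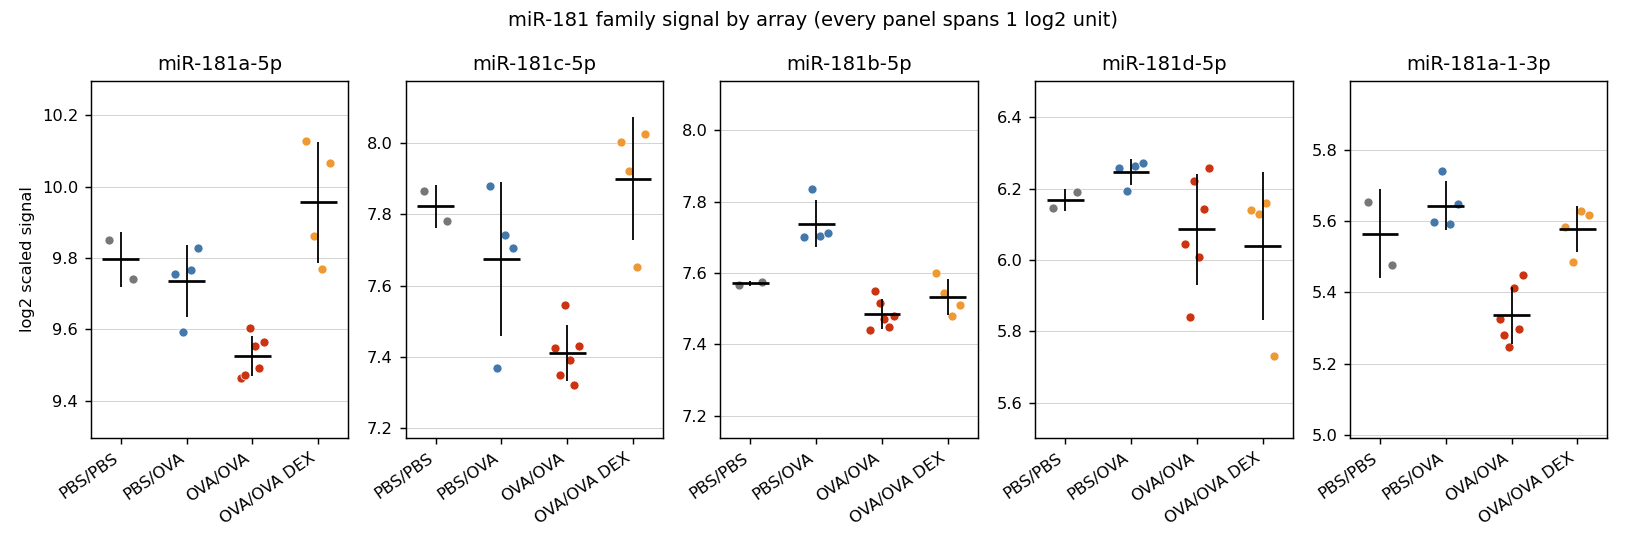
The vertical axis is log2 scaled signal, 1 panel per miRNA and 1 point per array, with the group mean as a horizontal line and ± 1 SD as a vertical line. Panels span the same range but start at different levels, and levels are not to be compared between panels. MiR-181a-5p and miR-181c-5p were lowest in OVA/OVA and highest in OVA/OVA DEX, whereas miR-181b-5p and miR-181d-5p were highest in PBS/OVA.

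Allergic lungs were compared with PBS/PBS lungs first. Against PBS/PBS, 2 of 5 members (40%) passed limma's test at an adjusted p below 0.05, both lower in OVA/OVA, beside 25.2% of the 266 miRNAs tested (12% called lower). MiR-181c-5p was lower by 24.8%, a log2 difference of -0.41 ± 0.12 (SE, adjusted p = 0.0294, limma). MiR-181a-1-3p was lower by 14.7% (-0.23 ± 0.08, adjusted p = 0.0453, limma). MiR-181a-5p, at -0.27 ± 0.10, missed the threshold with an adjusted p of 0.0512 (limma). It passed under 7 other settings, among them quantile normalisation (-0.45, adjusted p = 0.0458, limma), only miRNAs detected on all arrays (adjusted p = 0.0421, limma) and the deposited processed values (-0.30, adjusted p = 0.0357, limma). The 7 include no scaling and the 75th percentile over all mouse miRNAs, where 159 and 138 of the 266 miRNAs were called. The deposited values are no separate measurement, since their rows were matched by value to the arrays' total gene signal. Their adjustment ran over 152 miRNAs. MiR-181a-5p did not pass under 9 other settings, among them normexp background correction (-0.19, adjusted p = 0.131, limma) and the total gene signal. The latter gave -0.27, as in the main setting (adjusted p = 0.0512, limma), so the settings are not independent of each other. MiR-181a-5p also passed when PBS/OVA replicate 2 or OVA/OVA DEX replicate 1 or 3 was left out. The 95% interval of the difference was -0.22 to 0.05 for miR-181b-5p and -0.34 to 0.18 for miR-181d-5p. The median of the 5 members was -0.23, beside -0.02 over all miRNAs tested. Arrays did not overlap, with OVA/OVA lower, for 4 of the 5 members, against 25.6% of all miRNAs tested.

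Within slide 1, which alone held both groups, the differences were -0.43 for miR-181c-5p and -0.26 for miR-181a-1-3p. None of the 5 passed without PBS/PBS replicate 1, without PBS/PBS replicate 2 or without OVA/OVA replicate 2. The call of miR-181a-1-3p was also lost without any of 9 other arrays, and it stayed only without PBS/OVA replicate 2, OVA/OVA replicates 4 or 6, or OVA/OVA DEX replicate 4. With array brightness as a covariate the differences were -0.37 for miR-181c-5p (adjusted p = 0.212, limma) and -0.26 for miR-181a-1-3p (adjusted p = 0.174, limma). With normexp background correction miR-181a-1-3p (+0.61, adjusted p = 0.0407, limma) and miR-181d-5p (+0.53, adjusted p = 0.0473, limma) were called higher in OVA/OVA, and miR-181c-5p was not called (+0.04, adjusted p = 0.820, limma). The median of all miRNAs moved to +0.54 in that setting.

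Sensitisation was then isolated by comparing OVA/OVA with PBS/OVA, since both groups inhaled OVA. Of the 5 members, 3 (60%) were called, all lower in OVA/OVA, beside 31.6% of all miRNAs tested (16.9% called lower). MiR-181a-1-3p was lower by 19.2% (-0.31 ± 0.06, adjusted p = 0.00200, limma) and miR-181b-5p by 16.1% (-0.25 ± 0.05, adjusted p = 0.00159, limma). MiR-181a-5p was lower by 13.6% (-0.21 ± 0.08, adjusted p = 0.0493, limma), just inside the threshold. MiR-181c-5p showed a difference of similar size, -0.26 ± 0.10, with an adjusted p of 0.0546 (limma). For miR-181d-5p the difference was -0.16 with a 95% interval of -0.37 to 0.05. Member and overall medians were -0.25 and -0.04. The arrays of miR-181a-1-3p and miR-181b-5p did not overlap, which held with OVA/OVA lower for 9.02% of all miRNAs tested.

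Within slide 1 and slide 2 the differences were -0.36 and -0.27 for miR-181a-1-3p, -0.27 and -0.23 for miR-181b-5p, and -0.21 and -0.24 for miR-181a-5p. The calls of miR-181a-1-3p and miR-181b-5p held whichever array was left out. That of miR-181a-5p was lost without any of 12 arrays and held only without PBS/OVA replicate 2 or OVA/OVA DEX replicate 1, 3 or 4. Without PBS/OVA replicate 2, miR-181c-5p was called at -0.36 (adjusted p = 0.00589, limma). Without scaling, or with the 75th percentile taken over all mouse miRNAs, 0 members were called while all 5 stayed lower, and with normexp background correction miR-181a-1-3p, miR-181b-5p, miR-181c-5p and miR-181d-5p turned positive.

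The effect of dexamethasone in allergic lungs was read from OVA/OVA against OVA/OVA DEX. The test called 3 of 5 members (60%), all lower in OVA/OVA, beside 53.4% of all miRNAs tested and 32.3% called lower. The share of members called is thus near the background. MiR-181c-5p was 1.40-fold higher with dexamethasone (-0.49 ± 0.10 for OVA/OVA minus OVA/OVA DEX, adjusted p = 0.00129, limma). MiR-181a-5p was 1.35-fold higher (-0.43 ± 0.08, adjusted p = 0.000584, limma) and miR-181a-1-3p 1.18-fold higher (-0.24 ± 0.06, adjusted p = 0.00588, limma). MiR-181b-5p differed by -0.05, with a 95% interval of -0.15 to 0.06, and miR-181d-5p by 0.05, with an interval of -0.16 to 0.25, so that differences as large as those of miR-181a-5p lie outside both intervals. The member median was -0.24 and that of all miRNAs -0.09. All OVA/OVA arrays were below all OVA/OVA DEX arrays for 3 members, which held for 16.5% of all miRNAs tested.

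These 3 calls held whichever of the 16 arrays was left out, with log2 differences of -0.57 to -0.45 for miR-181c-5p, -0.49 to -0.37 for miR-181a-5p and -0.27 to -0.23 for miR-181a-1-3p. Within slides 1 and 2 the differences were -0.63 and -0.36 for miR-181c-5p, -0.63 and -0.26 for miR-181a-5p, and -0.06 and -0.03 for miR-181b-5p. Without scaling, which leaves differences of array brightness in the values, 0 of the 5 were called although all were lower in OVA/OVA, and with normexp only miR-181a-5p was called (-0.35) while miR-181a-1-3p and miR-181b-5p turned positive.

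**Figure D2:**
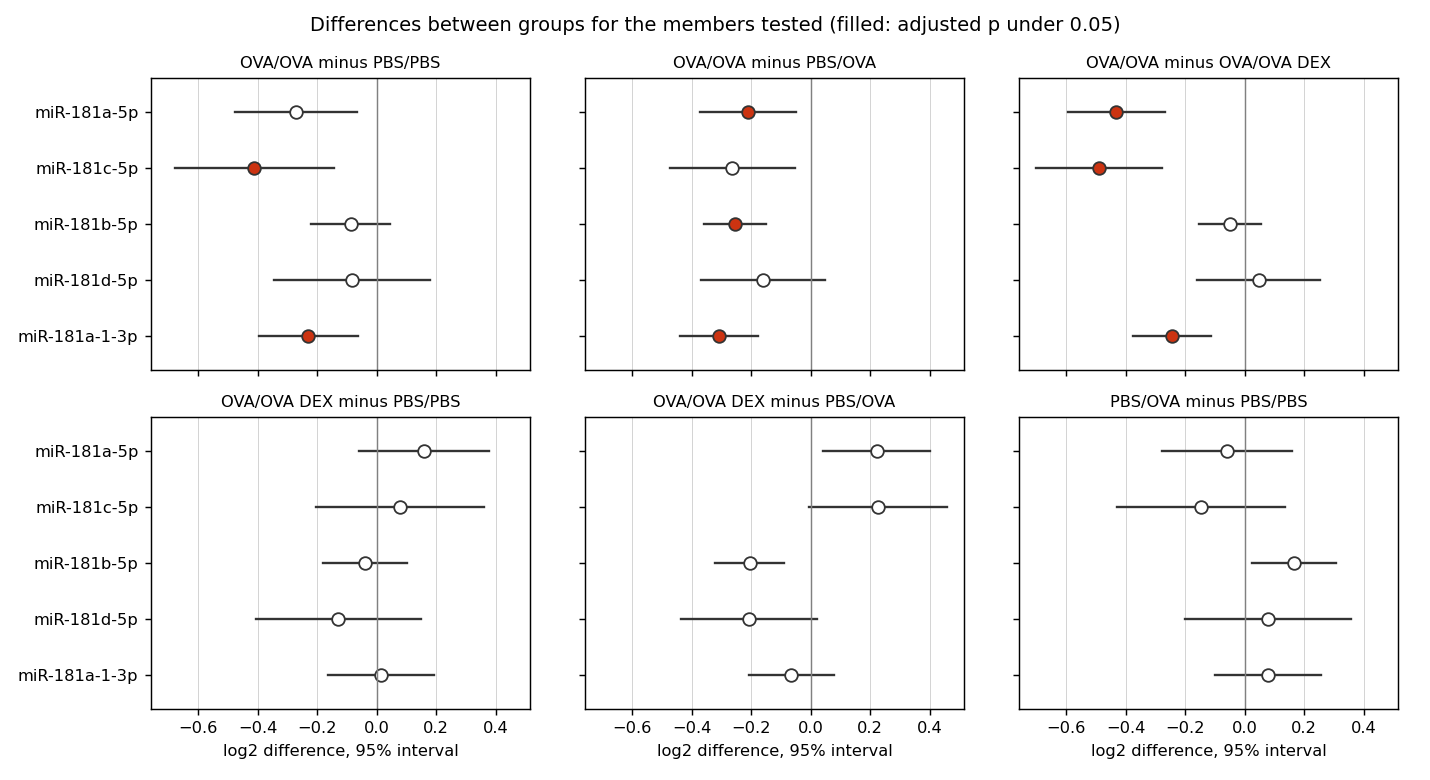
Each panel is a comparison, with the log2 difference (first group minus second) on the horizontal axis, 95% intervals as lines and filled points where limma's adjusted p was below 0.05. In OVA/OVA minus OVA/OVA DEX, miR-181a-5p (-0.43) and miR-181c-5p (-0.49) are further from 0 than miR-181b-5p (-0.05) and miR-181d-5p (0.05), and in the lower row no member is filled.

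Each detected member was read by 2 probes, with up to 10 spots a probe. For OVA/OVA minus OVA/OVA DEX, the probes of miR-181a-5p gave -0.40 and -0.44 and those of miR-181c-5p gave -0.48 and -0.51. The probes of miR-181b-5p gave -0.03 and -0.06. Those of miR-181d-5p gave 0.13 and 0.01, and its probes also parted against PBS/OVA, at 0.00048 and -0.23, so the level of this dim member was read less evenly. Whether closely related strands share signal on these probes was not tested.

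Direction under other scalings was read relative to the median of all miRNAs tested, since scaling moved that median. For OVA/OVA minus OVA/OVA DEX the median was -0.09 with the main scaling, -0.38 without scaling, -0.31 with the 75th percentile over all mouse miRNAs, -0.14 with quantile normalisation and +0.16 with normexp. Relative to it, miR-181a-5p stayed between -0.50 and -0.30 and miR-181c-5p between -0.43 and -0.34 over 9 settings. Settings that differ only by a factor per array must agree closely here, since such a factor shifts all miRNAs alike. Among settings that can differ, normexp gave -0.50 and -0.34 for these members. The total gene signal gave -0.37 and -0.43, but it is no separate check of them. Their measured differences there, -0.43 and -0.49, repeated the main setting, and only the median moved, to -0.06. MiR-181b-5p lay between -0.06 and 0.07, and miR-181d-5p between -0.02 and 0.18. For OVA/OVA minus PBS/PBS the median was -0.02, -1.11, -0.56, -0.19 and +0.54 in the same order of settings. The relative difference there was -0.73 to -0.18 for miR-181a-5p and -0.50 to -0.32 for miR-181c-5p, while those of miR-181b-5p, miR-181d-5p and miR-181a-1-3p crossed 0.

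**Figure D3:**
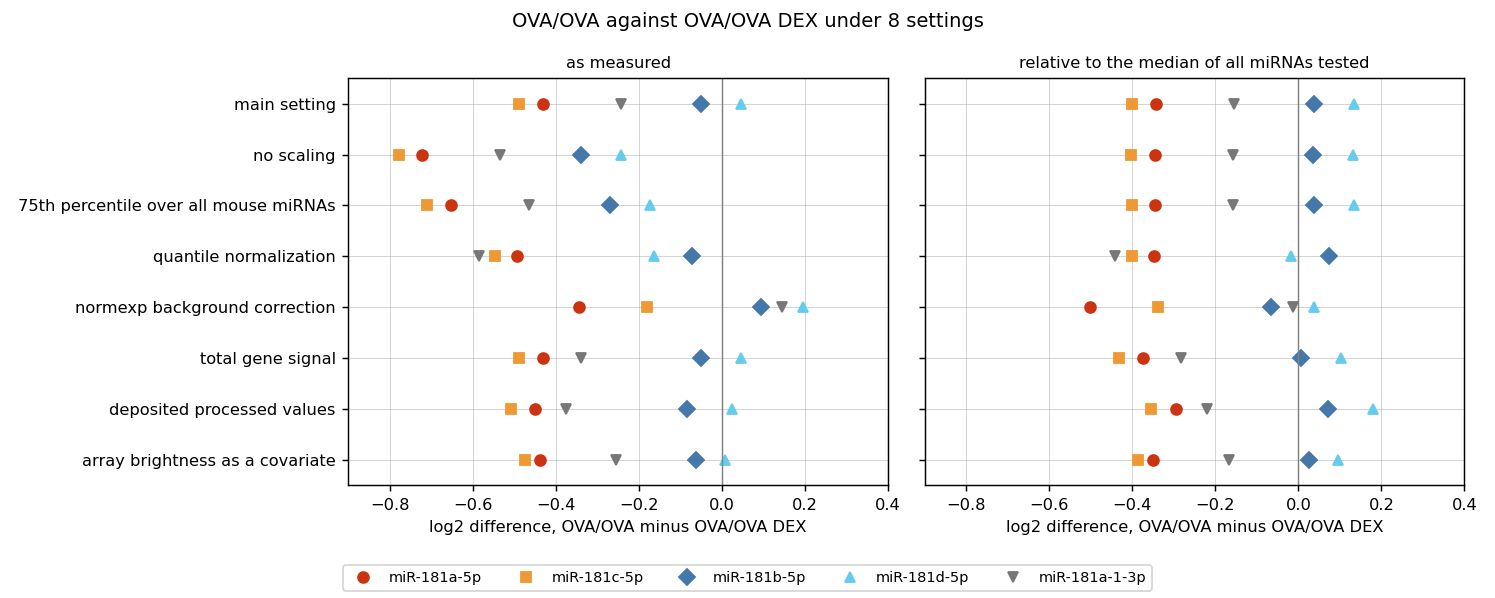
The horizontal axis is the log2 difference for OVA/OVA minus OVA/OVA DEX under 8 settings (rows), as measured at left and after subtraction of the median of all miRNAs at right. The measured values shift together with the scaling, whereas after subtraction miR-181a-5p and miR-181c-5p stay at about -0.30 or lower in every row shown. In the row of deposited processed values the median is over 152 miRNAs. Rows that differ only by a factor per array must agree closely after subtraction. The total gene signal row repeats the measured values of miR-181a-5p and miR-181c-5p in the main setting.

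The same contrast was taken within each array, as the log2 ratio of a member to miR-181a-5p, which scaling by a single factor cannot change. For miR-181b-5p the ratio ranged from -2.09 through a median of -2.06 to -1.92 in OVA/OVA, and measured -2.53, -2.32, -2.29 and -2.56 in OVA/OVA DEX. It was lower on every dexamethasone array, with a mean difference of 0.38 and a two-sided exact permutation p of 0.00952, the smallest that 6 against 4 arrays can give. For miR-181d-5p the ratio ranged from -3.63 to -3.31 in OVA/OVA and measured -3.99, -3.73, -3.61 and -4.34 in OVA/OVA DEX, with 1 dexamethasone array inside the range of OVA/OVA. The mean difference was 0.48 (exact permutation p = 0.0190). For miR-181c-5p the ratio was -2.11 ± 0.05 (SD, n = 6) in OVA/OVA and -2.06 ± 0.09 (n = 4) in OVA/OVA DEX, a difference of -0.06 (exact permutation p = 0.219). The 3p strand gave a difference of 0.19 (exact permutation p = 0.0667).

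Over all 12 ratio tests, 4 ratios in 3 comparisons, 0 passed Benjamini-Hochberg adjustment, and the exact adjusted p was 0.114 for both miR-181b-5p and miR-181d-5p against OVA/OVA DEX. A single ratio at the smallest possible p could not pass at this number of tests. At an unadjusted exact p below 0.05, 2 of the 12 passed, the same 2 ratios. Both share the miR-181a-5p signal of the same arrays, so they are not independent of each other. Within slides 1 and 2 the differences were 0.57 and 0.23 for miR-181b-5p and 0.64 and 0.28 for miR-181d-5p. Against PBS/OVA the 4 differences lay between -0.10 and 0.05, and against PBS/PBS between -0.14 and 0.19, where 6 against 2 arrays cannot give an exact p under 0.0714.

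**Figure D4:**
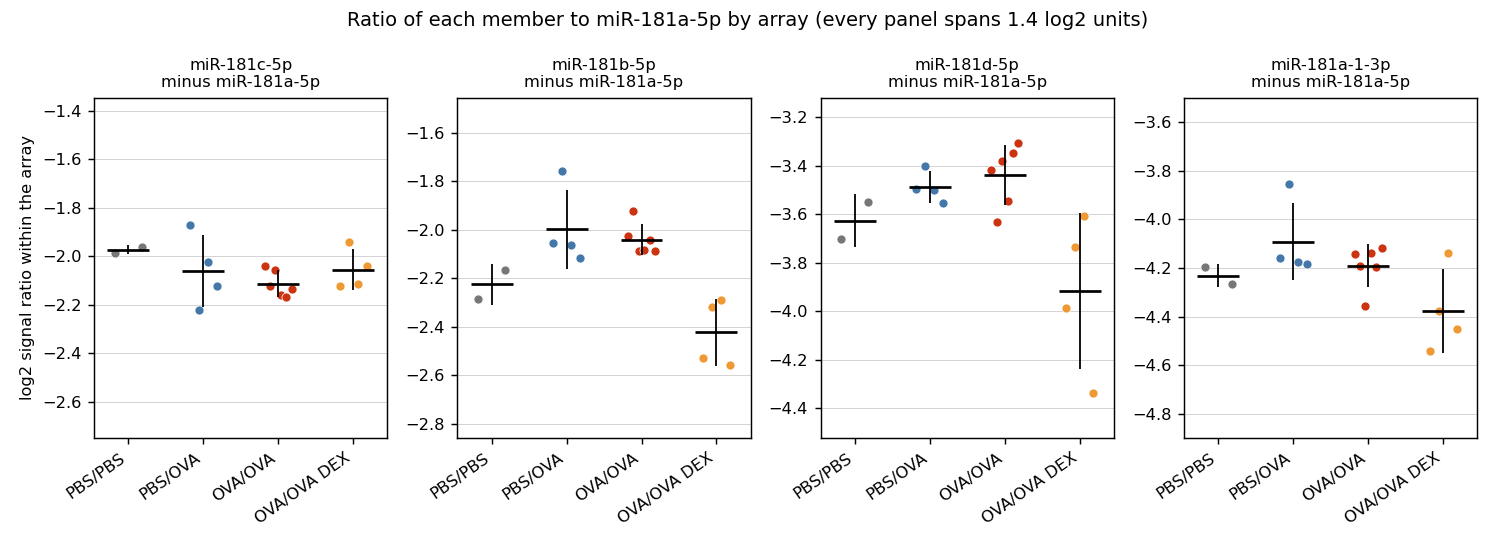
The vertical axis is the log2 ratio of each member to miR-181a-5p within an array, with group means as horizontal lines and ± 1 SD as vertical lines. For miR-181b-5p all 4 OVA/OVA DEX arrays lie at or below -2.29 and all 6 OVA/OVA arrays at or above -2.09, whereas the ratio of miR-181c-5p overlaps between those groups.

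Dexamethasone-treated lungs were set against both control groups, which share the OVA/OVA DEX arrays. Against PBS/PBS 0 of 5 members were called by limma (0% of all miRNAs tested), 0 had an unadjusted p below 0.05. The exact Mann-Whitney test could call none there, since 4 against 2 arrays cannot give an exact p under 0.133. The differences ran from -0.13 to 0.16. Against PBS/OVA 0 were called by limma (2.26% of all miRNAs tested) and 0 by the exact Mann-Whitney test, whose smallest unadjusted p at 4 against 4 arrays is 0.0286, and 2 had an unadjusted limma p below 0.05. These were miR-181b-5p, at -0.20 (adjusted p = 0.0677, limma), and miR-181a-5p, at 0.22 (adjusted p = 0.152, limma). The differences of miR-181a-5p and miR-181c-5p were 0.22 and 0.23, and those of miR-181b-5p and miR-181d-5p were -0.20 and -0.21. MiR-181b-5p and miR-181d-5p were lower on all 4 OVA/OVA DEX arrays than on any PBS/OVA array, which held for 7.52% of all miRNAs tested.

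OVA challenge without sensitisation was addressed by PBS/OVA against PBS/PBS. Limma called 0 of 5 members (0.376% of all miRNAs tested), and 1 member had an unadjusted p below 0.05. The exact Mann-Whitney test had the same lower limit of 0.133 and could call none. This was miR-181b-5p, higher by 0.17 in PBS/OVA (adjusted p = 0.818, limma). MiR-181b-5p and miR-181d-5p were above both PBS/PBS arrays on all 4 PBS/OVA arrays, beside 14.3% of all miRNAs tested.

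MiRNAs with a profile most like that of miR-181a-5p, the member with the highest mean signal, were ranked by Pearson's r over the 16 arrays among 201 other miRNAs detected on all arrays. They were miR-126-5p (r = 0.91), miR-30d-5p (0.90), miR-144-3p (0.89), miR-101a-3p (0.88) and miR-582-5p (0.87). After group means were removed these correlations were 0.69, 0.50, 0.68, 0.68 and 0.41. The values are descriptions, since the arrays share scaling and groups. Among family members, miR-181c-5p was the most alike to miR-181a-5p of all 205 candidates (r = 0.93, and 0.78 after group means were removed), while miR-181b-5p ranked 110 of 205 (r = 0.23) and miR-181d-5p 131 of 205 (r = -0.07). The profile most like that of miR-181c-5p was miR-450a-5p (r = 0.94), with miR-181a-5p ranked 2 of 205. Whether the closely related strands miR-181a-5p and miR-181c-5p share signal on their probes was not tested.

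Marker miRNAs of several cell types also differed between these groups. Of 7 miRNAs enriched in haematopoietic cells, limma called 4 higher in OVA/OVA with PBS/PBS as comparator, 6 with PBS/OVA and 5 with OVA/OVA DEX, and called 0 lower, beside 13.2%, 14.7% and 21.1% of all miRNAs tested that were called higher. MiR-146a-5p on that list, a brake on innate immune signalling, was called in none of the 3, at -0.21 against PBS/PBS and -0.29 against PBS/OVA (adjusted p = 0.272 and 0.0597, limma). MiR-155-5p, which is induced on activation of lymphocytes and macrophages, was higher by 1.99, 1.87 and 2.60 log2 units in these comparisons, and miR-223-3p, a myeloid miRNA, by 1.22, 1.12 and 0.51. The summed signal of the 7 was 34810 to 50371 in OVA/OVA and 17909 to 28743 over the other groups, and all 7 were detected on every array. The miR-181 members called in the same comparisons with the main scaling were lower in OVA/OVA.

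Endothelial miR-126-3p and miR-126-5p were both called lower in OVA/OVA than in PBS/OVA (-0.24 and -0.54) and than in OVA/OVA DEX (-0.30 and -0.88), and neither was called against PBS/PBS, beside 16.9% and 32.3% of all miRNAs called lower in the first 2 comparisons. Their summed signal lay between 30554 and 40853 in OVA/OVA and between 40697 and 48460 after dexamethasone. The red cell miRNAs miR-451 and miR-144-3p were lower in OVA/OVA than in OVA/OVA DEX, where both were called beside that same 32.3%, with summed signals of 36986 to 70438 and 100092 to 136112. Smooth muscle miR-143-3p and miR-145-5p were also both called lower in OVA/OVA than after dexamethasone (-0.31 and -0.45), as was striated muscle miR-133a-3p (-0.88), while miR-1a-3p at -0.81 was not (adjusted p = 0.0523, limma). Of 3 miRNAs of ciliated epithelium, miR-34b-5p and miR-34c-5p were called lower (-0.28 and -0.36) and miR-449a-5p higher (2.04) for OVA/OVA minus OVA/OVA DEX. Of 5 epithelial miRNAs, 1 was called higher and 1 lower in that comparison. The part of these cell types in the signals of the miR-181 family was not tested.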

How the data were processed

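Lung RNA on 16 arrays of 1 colour was analysed, grouped by their labels. The authors scanned the arrays and extracted them with Agilent Feature Extraction 10.7.3.1; the deposited values used here are processed spot intensity values (background-subtracted signals). The authors' processed log2 value table, deposited beside them, served as an alternative, and its rows were named by match to the array values for 152 miRNAs (tolerance 0.15 log2), all 5 detected members included. Outlier spots and control spots were left out, spots averaged per probe, probes summed per miRNA, arrays scaled by the 75th percentile over 206 miRNAs detected on all arrays, values below 2.60 set to that floor, and log2 taken.

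No replicates were duplicates (lowest median difference between 2 arrays of a group, 0.075 log2). All 4 groups were fitted with limma 3.58.1 (R 4.3.3), with Benjamini-Hochberg adjustment over 266 miRNAs and a threshold of 0.05. Ratios within the array were tested by two-sided exact permutation (scipy 1.17.1). In a single simulated set of 266 miRNAs, 50 were changed in OVA/OVA. The fit recovered 84% of changes of 0.75 log2 units for OVA/OVA minus OVA/OVA DEX, 76% against PBS/OVA and 60% against PBS/PBS. The members' differences were smaller than that. Noise was drawn independently for each miRNA, without brightness or slide effects shared by an array. The number of arrays limits the precision.

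Named were all family members and the 5 miRNAs most correlated with the brightest member. From the haematopoietic and endothelial lists, values were given for miR-155-5p, miR-223-3p, miR-146a-5p, miR-126-3p and miR-126-5p. The red cell miRNAs miR-451 and miR-144-3p and the miRNAs named for muscle, epithelium and other organs are from the marker lists. Members and lists were chosen with earlier results of these data known. Alternatives covered scaling, background correction, filters, slide, replicate number, array brightness, other tests and each array left out; within-slide values were added after the data were seen. Normexp used median spot signals.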

Additional observations from a re-analysis of the deposited data

Results flagged for a closer look

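In 27 groups of 4 or 6 arrays (members' signals and ratios), the extreme array was tested for a gap too wide for its group (Dixon's criterion), which chance alone meets in about 1 group in 20. It was met 4 times. MiR-181b-5p read 7.84 log2 units on PBS/OVA replicate 2, against 7.70 to 7.71 on the other 3 arrays. On the same array the log2 ratio of miR-181a-1-3p to miR-181a-5p was -3.86, against -4.18 to -4.16. MiR-181d-5p read 5.73 on OVA/OVA DEX replicate 4, against 6.13 to 6.16. The ratio of miR-181a-1-3p to miR-181a-5p was -4.36 on OVA/OVA replicate 3, against -4.20 to -4.12 on the other 5 arrays.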

How the results depend on the processing

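For OVA/OVA the number of members called was 2 with PBS/PBS as the comparator, 3 with PBS/OVA and 3 with OVA/OVA DEX. With PBS/PBS it was again 2 with normexp, but these were miR-181a-1-3p and miR-181d-5p called higher in OVA/OVA, as were 143 of all 266 miRNAs. Otherwise it was 5 without scaling and 5 with the 75th percentile over all mouse miRNAs. Of all 266 miRNAs, 159 and 138 were called in those 2 settings, 156 and 126 of them lower in OVA/OVA. The number of members was 1 with the total gene signal, 1 with all mouse miRNAs tested and 1 with a slide block. It was 0 with brightness as a covariate or the exact Mann-Whitney test, which cannot pass at 6 against 2 arrays. Against PBS/OVA it was 0 without scaling, 0 with the percentile over all and 0 with normexp, and against OVA/OVA DEX 0 without scaling and 1 with normexp. Of all 266 miRNAs, 3, 20 and 38 were called in these settings against PBS/OVA, and 23 and 59 against OVA/OVA DEX. For OVA/OVA DEX minus PBS/OVA, 0 became 1 with the total gene signal and 1 with all mouse miRNAs tested. Leaving out single arrays, the counts were 0 to 3, 2 to 4 and 3 to 3 for the OVA/OVA comparisons, and 0 to 0 for the other 3 and for the ratios.

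With the replicate number as a block the counts were 0 for PBS/PBS, 2 for PBS/OVA and 3 for OVA/OVA DEX as comparators. Deviations of same-numbered arrays correlated above 0.1 in 3 of 18 pairs (median r = -0.05), beside 29 of 74 pairs with different numbers. This gave no sign of pairing by number but cannot exclude it. Among arrays on the same slide 22 of 44 pairs were above 0.1, and 10 of 48 on different slides.

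Normexp turned miR-181a-1-3p, miR-181b-5p, miR-181c-5p and miR-181d-5p to 0.61, 0.27, 0.042 and 0.53 against PBS/PBS and to 0.27, 0.025, 0.019 and 0.23 against PBS/OVA, and miR-181a-1-3p and miR-181b-5p to 0.15 and 0.093 against OVA/OVA DEX. The offset of 50 it adds to each probe exceeds the unscaled probe signals of miR-181a-1-3p (6.54 to 48.0), and the cause was not tested further. The difference of miR-181d-5p from OVA/OVA DEX, 0.05, became -0.24 without scaling, -0.17 with the percentile over all, -0.16 with quantile normalisation, -0.011 with the replicate block, and -0.056 to 0.096 with single arrays left out, negative without OVA/OVA DEX replicate 4. Among the ratios to miR-181a-5p, normexp turned those of miR-181a-1-3p, miR-181b-5p and miR-181c-5p against PBS/OVA to 0.42, 0.18 and 0.17, and those of miR-181c-5p against OVA/OVA DEX and PBS/PBS to 0.17 and 0.23. Quantile normalisation turned those of miR-181a-1-3p against OVA/OVA DEX and PBS/PBS to -0.092 and -0.36 and those of miR-181d-5p against PBS/OVA and PBS/PBS to -0.083 and -0.12, and the total gene signal turned that of miR-181a-1-3p against PBS/PBS to -0.055. Against PBS/OVA, with single arrays left out, the ratio of miR-181b-5p ran from -0.083 to 0.037 (positive without PBS/OVA replicate 2) and that of miR-181c-5p from -0.11 to 0.0098 (positive without PBS/OVA replicate 1). None of these ratios was called under any setting. PBS/PBS had 2 arrays on 1 slide, which limits every comparison with it.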

Other observations

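Ratios between the other 5p strands were formed after the values were seen, and are given without a test and without any order of abundance. The log2 ratio of miR-181b-5p to miR-181c-5p was -0.30 and -0.20 in PBS/PBS, -0.18, 0.47, -0.04 and 0.01 in PBS/OVA, -0.03 to 0.20 with a median of 0.06 in OVA/OVA, and -0.40, -0.38, -0.17 and -0.51 in OVA/OVA DEX. All 6 OVA/OVA arrays were above all 4 OVA/OVA DEX arrays. The ratio of miR-181d-5p to miR-181b-5p averaged -1.40 ± 0.02 (SD, n = 2), -1.49 ± 0.10 (n = 4), -1.40 ± 0.18 (n = 6) and -1.49 ± 0.20 (n = 4) over PBS/PBS, then PBS/OVA, then OVA/OVA, then OVA/OVA DEX, so the group means lay within 1 SD of each other in the 3 larger groups. The ratio of miR-181d-5p to its chromosomal neighbour miR-181c-5p averaged -1.65 ± 0.09, -1.43 ± 0.19, -1.33 ± 0.13 and -1.86 ± 0.33 in the same order.

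PBS/OVA replicate 2 departed from its group in opposite directions for the strands, with the lowest miR-181a-5p (9.59) and miR-181c-5p (7.37) and the highest miR-181b-5p (7.84) and miR-181a-1-3p (5.74) of the 4 arrays.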
